A study of Mus musculus with 2 samples.

Results

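The genes examined are 10 members of the IL-10, IL-12, IL-27 and IL-6 cytokine axis, taken by gene name from a deposited table of 55246 loci, all 10 of which were found in it. They comprise 3 genes for secreted chains (Il10, Ebi3 and Il12a) and 7 for receptor chains (Il10ra, Il10rb, Il12rb1, Il12rb2, Il27ra, Il6ra and Il6st). RNA was sequenced from regulatory T cells (Treg cells) of the colon lamina propria, the connective tissue under the gut epithelium, of female mice. There was 1 library from wild-type mice (WT) and 1 labelled Exon2KO, in which Foxp3, the transcription factor that defines Treg cells, lacks exon 2. Both libraries share tissue, cell type and sex. The age of the mice, the sorting scheme, whether mice were pooled and how the allele was made are not given in the sources used here. The comparison asks how transcripts of colonic Treg cells differ when Foxp3 lacks this exon. Without replicates the variation between mice is unknown, and every interval covers counting error only.

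IL-10 is a homodimer of a single gene product, and it signals through a receptor of 2 chains, IL-10RA, which binds it, and IL-10RB, which is shared with the receptors of IL-22 and other cytokines of the family. In the colon, IL-10 made by Treg cells restrains inflammation against the microbiota. IL-12, IL-27 and IL-35 are each built from an alpha chain and a beta chain. The EBI3 protein is the beta chain of IL-27, where it pairs with IL-27p28, and of IL-35, where it pairs with the IL-12 p35 chain encoded by Il12a. The receptors of IL-27, IL-6 and IL-35 use gp130, the product of Il6st, and all of these receptors act through Janus kinases and STAT factors.

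Reads in genes totalled 16281133 for WT and 15412425 for Exon2KO. Foxp3 had 6991 reads in WT and 20946 in Exon2KO, and its log2 ratio was 1.56 (95% counting interval 1.52 to 1.60). Reads were counted over the gene and not per exon, so Foxp3 cannot serve as a check of the label. The 10 T cell identity genes all had reads in both libraries and summed to 6424 CPM (reads relative to the scaled library size) in WT and 5061 in Exon2KO. Of these, 7 had a log2 ratio below 0. Cd5 alone of the 10 was called (the rule for calls is given below), lower at -1.05, beside 6.81% of all genes tested called lower. Cd2, not called, was at -0.77 and Cd4 at 0.20. The 11 Treg genes also had reads in both. Of these, 1 was called higher in Exon2KO, Foxp3 itself, beside 7.31% of all genes tested. Another 7 were called lower, beside 6.81%: Ikzf2, Itgae, Nrp1, Lrrc32, Ikzf4, Tnfrsf18 and Tnfrsf4. Ikzf2 was the lowest, with 8476 and 440 reads and a log2 ratio of -4.29. RNA of plasma cells was present in both, with 120089 and 113723 reads of Jchain. In such bulk RNA, fewer cells of a type and less RNA per cell cannot be told apart.

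The levels of the 10 genes spanned more than 3 orders of magnitude in FPKM, the authors' scale, which divides reads by gene length and library size. In WT the order from high to low was Il10, Ebi3, Il27ra, Il10ra, Il10rb, Il12rb1, Il6st, Il12rb2, Il6ra and Il12a, and no neighbours in it had overlapping 95% Poisson intervals. In Exon2KO the order was Il10, Il27ra, Il12rb1, Ebi3, Il10rb, Il10ra, Il6st, Il12rb2, Il6ra and Il12a. There Ebi3 overlapped both of its neighbours, Il12rb1 and Il10rb, and Il12a overlapped Il6ra. Ebi3 thus stood at place 2 of the 10 in WT and at place 4 in Exon2KO, and Il10ra at places 4 and 6. The FPKM uses the length of the whole gene model, so a gene expressed mainly as a short transcript is understated.

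**Figure D1:**
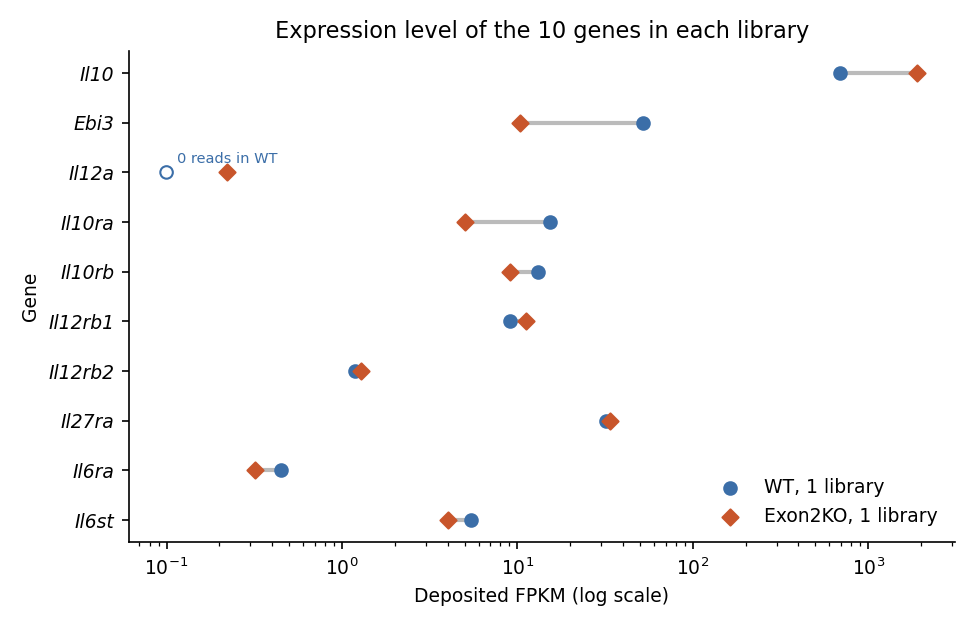
Deposited FPKM of each gene (log axis) in the WT library (blue circle) and the Exon2KO library (orange diamond), 1 library each; the open circle marks a gene with 0 reads in WT, drawn at the left edge. Il10 lies far to the right of the other members in both libraries, and Ebi3 and Il10ra have the longest connecting lines toward the left.

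Of the 10 genes, 9 had at least 10 reads over both libraries and were tested. The test was a 2-sided exact binomial test of each gene's reads against the library sizes scaled by TMM (trimmed mean of M-values), with Benjamini-Hochberg adjustment over all 17363 genes tested, and it compares these 2 libraries and not the genotypes. Calls required an adjusted p-value under 0.05 together with a ratio of 2-fold or more. Among the members 1 gene, Il10, was called higher in Exon2KO, beside 7.31% of all genes tested, and 2 genes, Ebi3 and Il10ra, were called lower, beside 6.81%. The other 6 were not called. With the fold requirement dropped, 6 of the 9 members and 42.1% of all genes tested passed, so at this depth counting error alone sets a low bar. The log2 ratio of Exon2KO to WT, computed after adding a prior count of 2, had a median of 0.0035 over all genes tested. A spread between samples can be assumed in edgeR's exact test, as a relative spread called BCV. All 3 members kept their calls at a BCV of 0.2, where 3.33% of all genes tested were called higher and 3.09% lower. All 3 lost them at 0.4, where the shares were 0.495% and 0.449%, so few genes of any kind were called there.

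**Figure D2:**
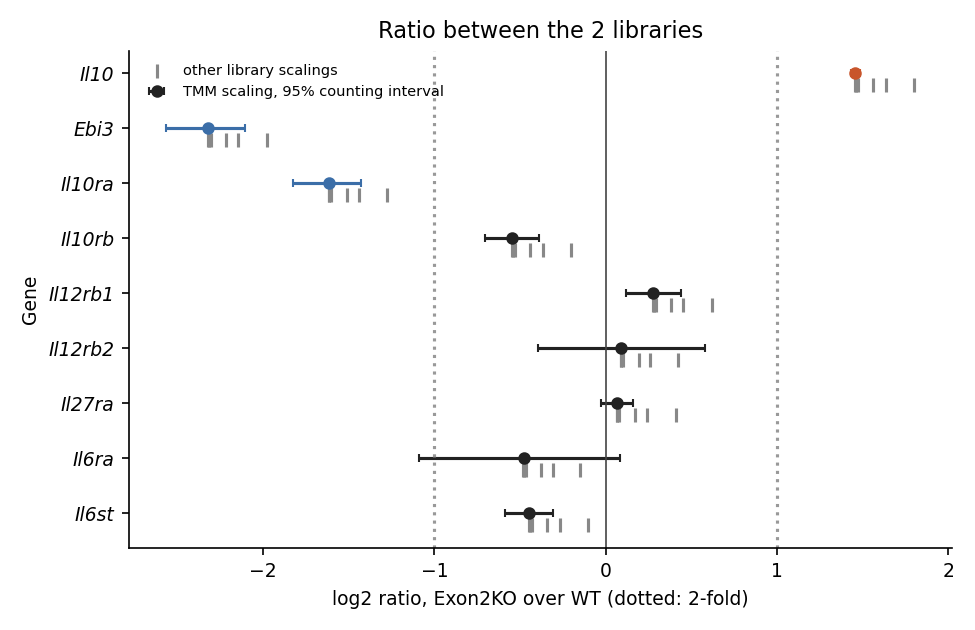
Log2 ratio of Exon2KO over WT for the 9 tested genes under TMM scaling (points, with 95% Clopper-Pearson counting intervals; orange called higher, blue called lower, black not called) and under 6 other library scalings (grey ticks). Il10 lies right of the dotted 2-fold line, Ebi3 and Il10ra lie left of it, and the other genes lie between the lines under each scaling shown.

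Il10 was the most abundant member in both libraries and was higher in Exon2KO. It had 14174 reads in WT and 39614 in Exon2KO, or 903 and 2478 CPM. On the FPKM scale these were 686 and 1901, which placed it at rank 68 of the protein-coding genes in WT and at rank 13 in Exon2KO. The ratio was 2.74-fold, a log2 ratio of 1.46 (1.43 to 1.48), and 5.20% of all genes tested had a higher one. The gene (ENSMUSG00000016529) lies on chromosome 1 from 131019845 to 131024974 on the plus strand of GRCm38, and no other listed locus overlaps it. The authors' deposited table gives Il10 a log2 fold change of 1.46 with an adjusted p-value of 0.0157. The deposited p-values, of this and the other members, match edgeR's exact test on the same counts at an assumed BCV of 0.2. They are thus no separate evidence beside the next value. At a BCV of 0.2 the adjusted p-value from edgeR was 0.0121, and at 0.4 it was 1.0.

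Since Foxp3 also had more reads in the Exon2KO library, Il10 was set against it within each library, which needs no library scaling. Per unit of gene length, Il10 stood at 6.17 times Foxp3 in WT (5.999 to 6.35) and at 5.76 times in Exon2KO (5.66 to 5.86). Relative to Cd3e, a chain of the T cell receptor complex, it stood at 8.57 (8.30 to 8.84) and 23.4 (22.8 to 24.1). The level of Il10 relative to Foxp3 thus differed little between the libraries, though these intervals do not overlap, while its level relative to Cd3e was higher in Exon2KO. Foxp3, the altered gene itself, was the 1 of 11 Treg genes called higher, while 7 were called lower. The shares of all genes tested were 7.31% and 6.81%. Il10 was not set against the other Treg genes, so its ratio to Foxp3 does not stand for Treg genes in general.

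Ebi3, which encodes the beta chain of IL-27 and IL-35, was lower in Exon2KO and had the largest absolute ratio of the tested members. It had 944 reads in WT and 191 in Exon2KO, which is 60.1 and 11.9 CPM, or 51.9 and 10.4 FPKM. This was a 4.99-fold lower level, with a log2 ratio of -2.32 (-2.56 to -2.11), and 1.70% of all genes tested had a lower one. The gene (ENSMUSG00000003206, chromosome 17, 55952640 to 55957022, plus strand) is crossed over 2252 bases by the antisense locus Gm16712, which had 47 and 11 reads. The use of strand in counting is not given in the sources used here, so reads of that overlap are uncertain. The authors' deposited table gives Ebi3 a log2 fold change of -2.33 with an adjusted p-value of 1.6e-05. At a BCV of 0.4 the adjusted p-value from edgeR was 0.288.

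The sequences upstream of members are shown for the gene with the largest ratio, Ebi3, and for Il12rb2, whose ratio was near 0, with matches to 4 motifs in capitals. They are the 250 bases before the RefSeq start (build GRCm38.p6), written 5′ to 3′ on the gene's own strand. The RefSeq promoter table held 5 of the 10 members: Ebi3, Il12a, Il12rb2, Il6ra and Il6st. The window of Ebi3 is chr17:55952373-55952622 on the plus strand, and that of Il12rb2 is chr6:67376189-67376438 on the minus strand.
Ebi3: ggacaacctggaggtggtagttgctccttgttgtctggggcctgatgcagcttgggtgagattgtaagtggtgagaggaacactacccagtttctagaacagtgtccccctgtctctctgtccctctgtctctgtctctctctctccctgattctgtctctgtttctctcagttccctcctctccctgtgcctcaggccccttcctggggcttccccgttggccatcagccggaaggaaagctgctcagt
Il12rb2: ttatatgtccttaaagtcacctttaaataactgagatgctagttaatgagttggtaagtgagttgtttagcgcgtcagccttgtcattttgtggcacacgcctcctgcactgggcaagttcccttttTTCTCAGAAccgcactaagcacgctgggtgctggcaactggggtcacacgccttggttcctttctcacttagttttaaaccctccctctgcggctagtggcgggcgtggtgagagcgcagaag

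The motifs searched on both strands were a forkhead core (TGTTTAC, held by 3.17% of the 32851 promoters in the table over the same 250 bases), a STAT site (TTCNNNGAA, 7.02%), a GATA site (AGATAA, 9.99%) and a MAF half-site (TGCTGA, 16.1%). The Ebi3 window held none of these letters. The Il12rb2 window held 1 STAT match, which starts 123 bases before the RefSeq start and is the stretch in capitals. Among the other members, the Il6ra window held a GATA match and a MAF half-site, and the windows of Il6st and Il12a held no match. A match describes letters in this window and does not show binding.

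Il12a, the alpha chain that joins EBI3 in IL-35 and the IL-12 p40 chain in IL-12, was at the detection limit. It had 0 reads in WT and 6 in Exon2KO, too few to be tested, and the latter is 0.222 FPKM. A count of 0 allows up to 3 reads, and the lower 95% counting limit of the log2 ratio was 0.21. The partner chains outside the members were also scarce: Il12b had 0 reads in both libraries, Il27 had 0 and 2, and Il23a had 5 and 1. Ebi3 was thus the 1 chain of the IL-12 family ligands with more than 10 reads in either library.

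Il10ra, the chain that binds IL-10, was lower in Exon2KO, opposite in direction to its ligand gene. It had 850 reads in WT and 281 in Exon2KO, which is 54.2 and 17.6 CPM, or 15.4 and 5.05 FPKM. The level was 3.07-fold lower, a log2 ratio of -1.62 (-1.82 to -1.43), and 3.62% of all genes tested had a lower one. The gene (ENSMUSG00000032089) lies on chromosome 9 from 45253837 to 45269149 on the minus strand. A pseudogene, Gm20612, and a microRNA gene, Mir7086, lie within it and had 0 reads in both libraries. The authors' deposited table gives Il10ra a log2 fold change of -1.62 with an adjusted p-value of 0.00638, and at a BCV of 0.4 the adjusted p-value from edgeR was 0.896.

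Il10rb, the shared second chain, had 786 reads in WT and 548 in Exon2KO, or 13.1 and 9.04 FPKM. Its log2 ratio of -0.55 (-0.71 to -0.39) was short of 2-fold and was not called. Over 13288 bases Il10rb shares its strand with Gm21970, a protein-coding locus with 0 reads in both libraries, so how reads of shared exons were assigned is uncertain. Per unit of length, Il10ra stood at 1.18 times Il10rb in WT (1.07 to 1.299) and at 0.558 times in Exon2KO (0.482 to 0.646). By this measure the binding chain stood above the shared chain in the WT library and below it in the Exon2KO library, and these intervals do not overlap. The intervals leave out error in the gene lengths, so which chain was the more abundant in WT is not settled. The difference between the libraries does not depend on those lengths.

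None of the receptor genes Il12rb1, Il12rb2 and Il27ra was called. With libraries scaled to the summed reads of the T cell identity genes their log2 ratios were 0.62, 0.42 and 0.41, and 0.45, 0.26 and 0.24 without Cd2, the gene with most reads in that sum. Il12rb1, the chain that IL-12 and IL-23 receptors share, had 589 reads in WT and 727 in Exon2KO, with a log2 ratio of 0.28 (0.12 to 0.44) that was not called. Il12rb2, the chain specific to the IL-12 receptor and used by IL-35, had 71 and 77 reads, with a log2 ratio of 0.09 (-0.39 to 0.58). Depth limits the last gene: a difference within that interval was not detectable. Il12rb2 also lies across the end of Serbp1 on the opposite strand for 6419 bases, a gene with 4278 and 3933 reads.

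Per unit of length, Il12rb1 stood at 7.67 times Il12rb2 in WT (5.99 to 9.95) and 8.73 times in Exon2KO (6.89 to 11.2), and these intervals overlap. Il27ra, the ligand-specific chain of the IL-27 receptor, had 1770 and 1885 reads, or 32.1 and 33.9 FPKM. Its log2 ratio of 0.06 (-0.03 to 0.16) was within counting error with TMM, but not with total counts (0.17) or with the T cell identity scaling, with or without Cd2. The adjusted binomial p-values were 0.292 with TMM, 0.00134 with total counts, and 1.28e-16 and 2.57e-06 with those 2 scalings. Il27ra was the most abundant receptor member in both libraries.

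Il6st encodes gp130, the signalling chain shared by the IL-6 and IL-27 receptors. It had 954 reads in WT and 713 in Exon2KO, or 5.45 and 4.04 FPKM, and its log2 ratio of -0.45 (-0.59 to -0.31) was not called. Il27ra stood at 5.89 times Il6st per unit of length in WT (5.44 to 6.38) and at 8.40 times in Exon2KO (7.70 to 9.16), intervals that do not overlap. Il6ra, the chain that binds IL-6, was near the lower end in both, with 61 and 44 reads and a log2 ratio of -0.48 (-1.09 to 0.08). Il6st stood at 12.2 times Il6ra in WT (9.40 to 16.05) and at 12.6 times in Exon2KO (9.30 to 17.5). Of the 7 receptor genes, Il10ra alone was called, 4 had ratios below 0 and 3 above, and their median log2 ratio was -0.45. With the T cell identity scaling that median was -0.10, and -0.27 without Cd2. Il10rb, Il6ra and Il6st then stood at -0.20, -0.15 and -0.10, and at -0.37, -0.31 and -0.27 without Cd2. With Cd2 in the sum, the difference of Il6st was within counting error (adjusted p-value 0.218 by the binomial test).

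**Figure D3:**
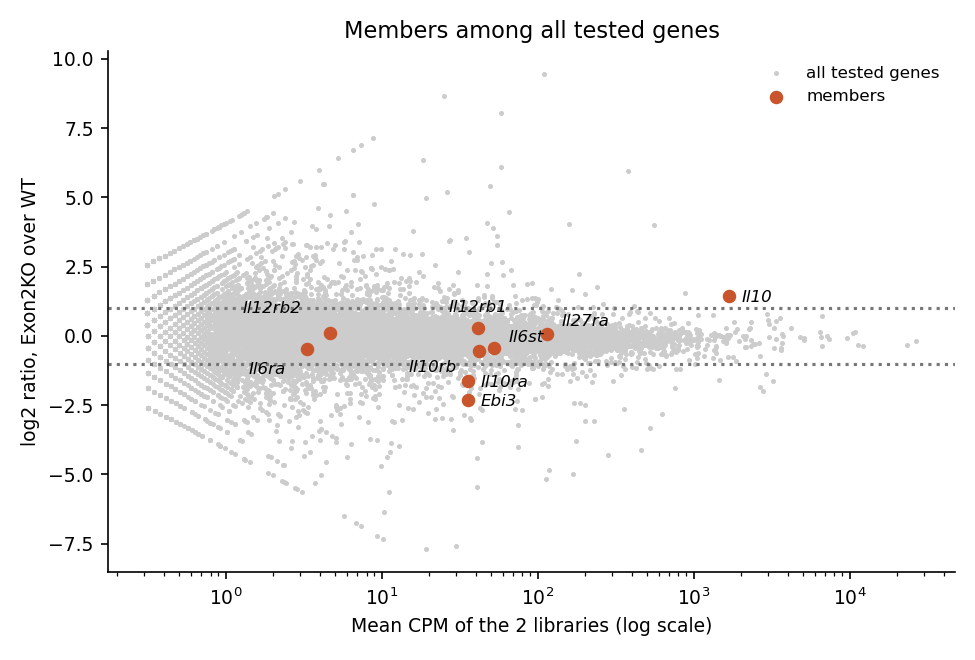
Log2 ratio against mean CPM (log axis) for all genes tested (grey) and the 9 tested members (orange), with dotted lines at 2-fold. Il10 lies above the upper line at high abundance, while Ebi3 and Il10ra lie below the main cloud and the other members lie inside it.

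To place the members among their partners, 7 lists of other pathway genes, 74 distinct genes in all, were described by counts. Of the 56 with at least 10 reads, 10 were called higher and 4 lower, beside 7.31% and 6.81% of all genes tested, which is the background of every list count that follows with this test. With an assumed BCV of 0.2 (edgeR), Il17a, Il17f, Il22, Il23r, Il6 and Cntf were still called higher and Cxcr3, Gata3 and Lif lower, beside 3.33% and 3.09% of all genes tested. With 0.4, of the 56, Il17a and Il17f alone were called, both higher, beside 0.495% called higher and 0.449% lower. Of the 11 other genes of the IL-10 family, 8 had fewer than 10 reads. Il22, a cytokine that acts through IL-10RB on epithelium, had 45 and 269 reads and was called higher, with a log2 ratio of 2.50 (2.09 to 3.04). In the IL-12 family Il23r, the partner of IL-12RB1 in the IL-23 receptor, had 326 reads in WT and 1172 in Exon2KO and was called higher at 1.81 (1.64 to 2.00).

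Among the 15 other genes of the gp130 family, 9 were tested, of which 3 were called higher and 1 lower, with a median log2 ratio of 0.48. These calls rest on few reads. Il6 itself had 11 reads in WT and 94 in Exon2KO, with a log2 ratio of 2.86 (2.16 to 4.12). The other 3 genes called had 100 reads or fewer and were picked out after their values were seen: Lif had 52 and 8 reads, Cntf 1 and 16, and Lifr 1 and 12. The median of this list was -0.36 when at least 50 reads were required.

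None of the 14 Janus kinase, STAT, SOCS and related genes described was called, and 12 had a ratio below 0. Their median log2 ratio was -0.22 with TMM, 0.13 when libraries were scaled to the T cell identity genes, and -0.04 with that scaling without Cd2. Stat3, the main factor downstream of IL-10 and IL-6, had 20036 reads in WT and 13066 in Exon2KO, and its log2 ratio was -0.64 (-0.68 to -0.61). Socs3, a feedback inhibitor that binds gp130, had 3526 and 2314 reads, a log2 ratio of -0.63. Jak1, a kinase of the IL-10, IL-6 and IL-27 receptors, was at -0.21 (-0.26 to -0.16).

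Among 14 transcription factors known to act on Il10 in T cells, 2 were called higher and 1 lower, with a median log2 ratio of 0.09 (0.20 with total counts and 0.44 when scaled to the T cell identity genes, or 0.27 without Cd2). Maf, an activator of Il10, had 2336 reads in WT and 4853 in Exon2KO, with a log2 ratio of 1.03 (0.96 to 1.10). Ikzf3, which encodes Aiolos, had 4179 and 8987 reads, at 1.08 (1.02 to 1.13). Gata3, which marks another set of tissue Treg cells, had 5347 and 954 reads and was called lower, at -2.51 (-2.61 to -2.41).

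Of 11 STAT3 target genes described, 4 were called higher and 0 lower, while 7 had a ratio below 0 and the median was -0.18 (-0.07 with total counts, -0.32 with at least 50 reads, 0.17 when scaled to the T cell identity genes and 0.00018 with that scaling without Cd2). The 3 with the largest ratios and enough reads were Il17a, with 190 and 12014 reads, Il17f, with 34 and 1551, and Il23r, given above. Il21, a cytokine with 2 and 13 reads, was the other. The 7 genes not called were Rora (-0.88), Batf (-0.83), Socs3 (-0.63), Bcl6 (-0.54), Bcl3 (-0.46), Pim1 (-0.18) and Junb (-0.07), with log2 ratios in brackets.

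Of 8 tested IL-12 and STAT4 targets, Il18rap (1461 and 693 reads) and Cxcr3 (2099 and 661 reads) were called lower and 0 were called higher, with a median log2 ratio of -0.04 that turned positive with total counts (0.067) and with the T cell identity scaling (0.30, or 0.14 without Cd2). Il18rap, at -1.10, was not called with total counts (-0.99) or with the T cell identity scaling (-0.76, or -0.92 without Cd2). Ifng, the hallmark of an IL-12 response, had 91 and 85 reads, a log2 ratio of -0.12 (-0.57 to 0.32).

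**Figure D4:**
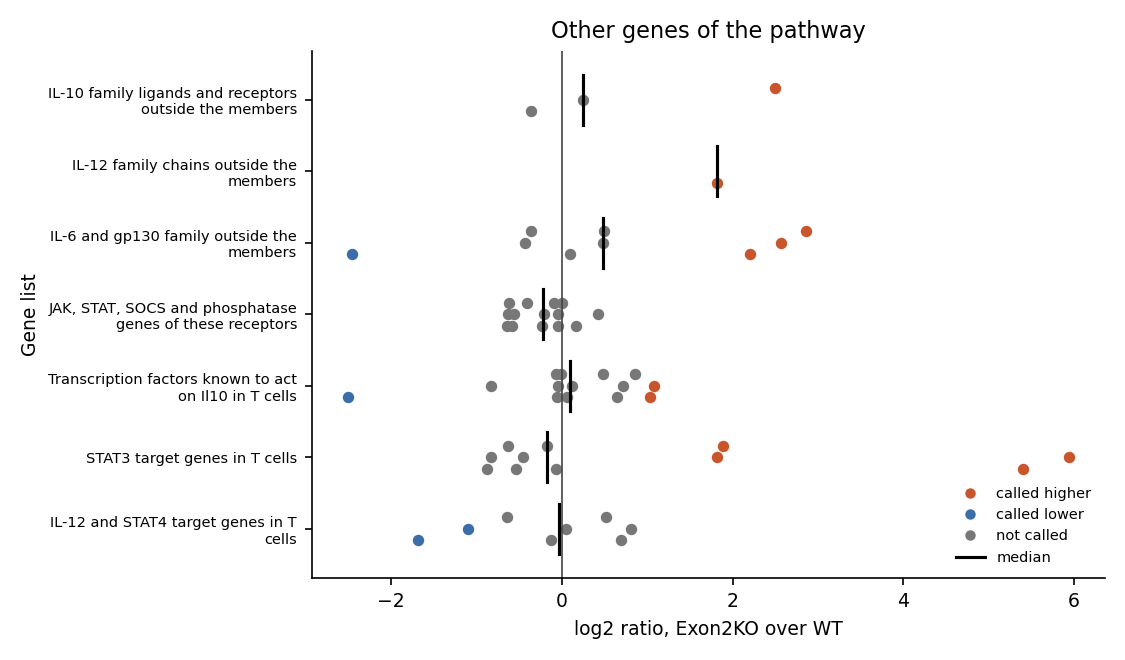
Log2 ratio of Exon2KO over WT for each tested gene of the 7 pathway lists (points; orange called higher, blue called lower, grey not called), with the list median as a black bar under TMM scaling. The kinase and STAT list has no calls and lies mostly left of 0, and the points farthest to the right are Il17a and Il17f in the STAT3 target list.

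Several of these genes are also expressed by other cells of the mucosa, so marker lists were summed in each library. The 12 epithelial markers summed to 98.3 CPM in WT and 487 in Exon2KO, with 9 called higher and 0 lower. Myeloid markers, of cells that can make IL-10 and IL-6, summed to 41.4 and 51.4 CPM over 12 genes. Of these, 7 were tested and 0 were called in either direction. Itgax and Cd163 had 0 reads in both libraries. Mast cell markers summed to 27.4 and 16.7 CPM over 7 genes. Of these, 2 were tested and 1 was called lower, and 4 (Mcpt1, Mcpt2, Fcer1a and Ms4a2) had 0 reads in both. Stromal and endothelial markers summed to 81.4 and 78.4 CPM over 12 genes, with 3 called higher and 1 lower of the 10 tested.

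Markers of other lymphocytes were also read. B and plasma cell markers, of cells that can express Il10 and Ebi3, summed to 8623 and 8141 CPM, or 972 and 1028 without Jchain. Of the 10 genes 9 were tested, with 1 called higher and 2 lower. CD8 and NK cell markers without Gzmb, which Treg cells also express, summed to 19.9 and 12.8 CPM. Of the 9 genes with Gzmb 8 were tested, with 1 called higher and 2 lower. Markers of gamma-delta T cells and innate lymphoid cells without Id2, which is widespread in T cells, summed to 30.1 CPM in WT and 128 in Exon2KO, with 6 called higher and 1 lower of 9. The 6 called higher were Tcrg-C1 (123 reads in WT and 1034 in Exon2KO), Il1r1 (164 and 824), Cd163l1 (4 and 56), Zbtb16 (11 and 32), Sox13 (5 and 22) and Tcrg-C2 (3 and 20), Kit (149 and 53) was called lower, and Trdc had 14 and 13 reads. The part of these cells in the ratios of Il10, Ebi3, Il10ra, Il6, Il22, Il23r, Il17a, Il17f and Maf, or of any other gene named, was not tested.

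**Figure D5:**
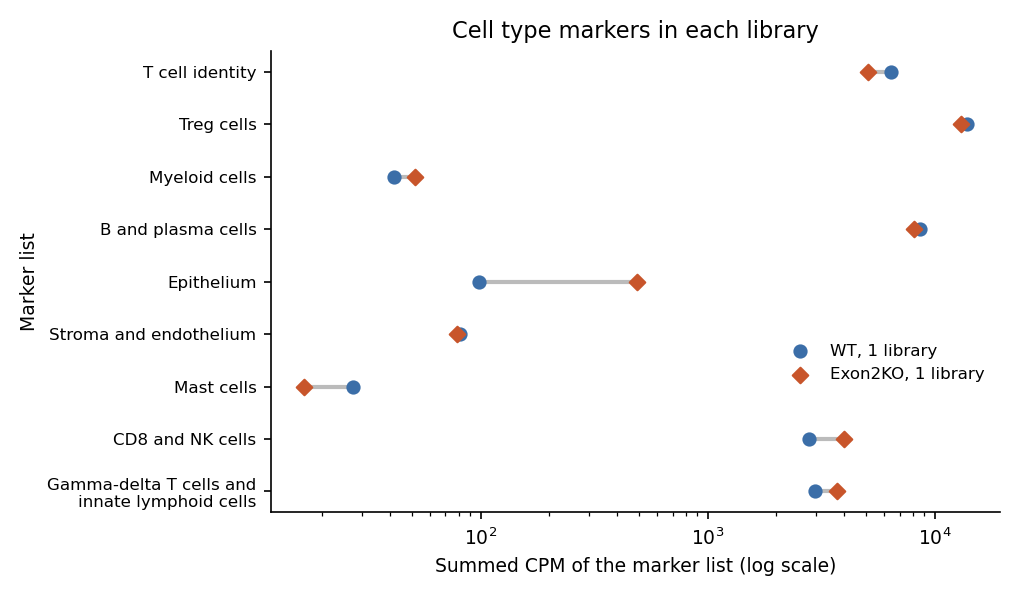
Summed CPM (log axis) of each marker list in the WT library (blue circle) and the Exon2KO library (orange diamond), 1 library each. Every gene of a list is in its sum, also Jchain, Gzmb and Id2, which dominate theirs. Without Jchain the B and plasma cell sums were 972 and 1028 CPM. Without Gzmb the CD8 and NK cell sums were 19.9 and 12.8. Without Id2 the gamma-delta and innate lymphoid sums were 30.1 and 128. The epithelial list shows the widest gap, and the myeloid, stromal and mast cell sums stay below 100 CPM in both libraries.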

How the data were processed

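RNA of 2 samples was sequenced, 1 library per genotype. Deposited by the authors were raw counts of reads per gene, FPKM, a scaled count signal (not used here), and a log2 fold change with p-values. The submitters' processing notes name HISAT2 2.0.5, StringTie 1.3.3b, featureCounts 1.5.0-p3, DESeq2 1.16.1 and the build mm10, with no role for each. For 100% of the 22447 genes with a deposited p-value, edgeR's exact test at a BCV of 0.2 came within 1% of it. Coordinates of all 10 members are identical in GENCODE M21 (GRCm38).

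From the counts, TMM factors (0.964 for WT and 1.04 for Exon2KO) were computed with edgeR 4.0.16 in R 4.3.3. Binomial tests, Clopper-Pearson and Poisson intervals used Python 3.11.15 with scipy 1.17.1, after checks on simulated data. The test across genes needs at least 10 reads over both libraries. A count of 0 allows 3 reads, or 1.84e-05% of the WT library and 1.95e-05% of the Exon2KO library. The reads carry no molecular identifiers that the sources used here name, so intervals treat each read as independent. Scaling (with DESeq2 1.42.0 among the alternatives), prior count, read minimum, fold and assumed spread were varied.

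The members, lists and tests were chosen with earlier results of these data known. Named genes are the members, Foxp3, partner chains, and up to 3 called genes per list with at least 100 reads in 1 library, ranked by absolute log2 ratio. Genes outside this rule are examples of a list, picked after their values were seen. Some pathway genes and the list that rests on them are not reported here and were left out of the list counts.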

Additional observations from a re-analysis of the deposited data

How the results depend on the processing

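The 3 called members kept their direction and call under the 6 other scalings and the prior counts of 0.5 and 5, and no member changed sign in these 72 recomputed ratios. An assumed spread or another fold threshold changes only the call. Il10 (1.46) and Il10ra (-1.62) lost their call at a fold threshold of 4, and Il10, Ebi3 (-2.32) and Il10ra lost it with an assumed BCV of 0.4. Members called higher then numbered 0 in both cases, and members called lower 1 and 0. Over all genes tested, calls higher and lower were 1270 and 1183. A minimum of 50 reads gave 649 and 685, since fewer genes were tested, and a fold threshold of 4 gave 499 and 408. Assumed BCVs of 0.2 and 0.4 gave 579 and 536, and 86 and 78. Protein-coding genes alone gave 820 higher, since fewer genes were tested, and a fold threshold of 1.5 gave 1891 lower. Pathway list genes called lower were 11 at a fold threshold of 1.5, and those called higher and lower were 6 and 2 at 4. Total counts moved the median of all genes by 0.105 and the share of calls that were higher from 51.8% to 60.2%. Scaling to the T cell identity genes, chosen after the data were seen, moved them by 0.341 and to 74.6%, with 2252 higher and 768 lower. Without Cd2 in that sum the shift was 0.175 and the share 64.4%. Of 60 recomputed list medians, 9 changed sign: the IL-10 family (-0.056 with at least 1 read), the gp130 family (-0.36 with at least 50 reads), the JAK and STAT list (0.13) and STAT3 targets (0.17, or 0.00018 without Cd2) with the T cell identity scaling, and IL-12 and STAT4 targets with total counts (0.067), at least 1 read (0.047) and the T cell identity scaling (0.30, or 0.14 without Cd2). Ratios between 2 genes of 1 library do not depend on scaling. No paired analysis was possible because a single library stands for each genotype, and no library could be left out.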

Other observations

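Genes of similar depth were searched for those whose ratio over the 2 libraries was nearest to that of each called member, among protein-coding genes with total reads within 1.5-fold. For Il10 there were 51 candidates and none was close: the nearest was mt-Nd1, a mitochondrially encoded gene, whose log2 ratio of 0.74 lay 0.71 away. For Ebi3, with 2250 candidates, the 2 nearest were Nrp1 (656 and 121 reads in WT and Exon2KO), which encodes neuropilin-1, and Ldhb (738 and 163), which encodes a subunit of lactate dehydrogenase. For Il10ra, with 2251 candidates, the 2 nearest were Cd1d1 (643 and 203 reads) and Tespa1 (717 and 252). With 2 libraries the likeness is 1 number per gene, the ratio.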
